A study of Mus musculus with 8 samples.

Results

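The Cyp2b genes Cyp2b9, Cyp2b10, Cyp2b13 and Cyp2b19 were followed in mouse liver through every probe that carries their names on the array. They make up 4 of 27962 gene names and 8 of 41174 probes, chosen by gene name alone, and 7 of the 8 probes were detected. Cyp2b enzymes are haem-containing monooxygenases of the endoplasmic reticulum that oxidise drugs, steroids and fatty acids. In hepatocytes their best known regulator is CAR (Nr1i3), a nuclear receptor held in the cytoplasm with heat shock proteins until it enters the nucleus, pairs with a retinoid X receptor and binds enhancers of its target genes. Cyp2b10 is the classic CAR target of mouse liver and is induced by phenobarbital, Cyp2b9 and Cyp2b13 are known for higher expression in female than in male adult liver, and Cyp2b19 is best known from the skin.

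All mice were wild-type males of the C57BL/6 strain (C57BL/6J in the study's methods), aged 14 to 17 weeks at the start. The 4 STD mice received standard chow and the 4 ATH mice an atherogenic diet, which is high in fat and cholesterol and contains cholic acid, for 4 weeks in both groups. Liver RNA of each mouse was labelled with Cy3 and hybridised to 1 array of the Agilent whole mouse genome format. The question put to the Cyp2b genes was whether their RNA level differed between the diets, and whether the members differed from each other in this.

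Values are given as scaled log2 intensity, the log2 of the probe's processed signal minus the 75th percentile of its array, so that 0 is the 75th percentile and a step of 1 is a doubling. A probe was called when its adjusted p in limma was under 0.05, which holds the false discovery rate at 5%. Levels of different probes were not set against each other, because a probe's brightness depends on its own sequence. The arrays of each diet shared a slide of their own, and a difference between slides cannot be told apart from one between diets. Between 72.4% and 77.8% of spots on an array were well above background, and p-values reflect the spread between mice. The 18 detected hepatocyte markers, among them Alb and Apoa1, had a mean scaled log2 intensity of 7.39 to 7.44 in STD and 6.77 to 7.18 in ATH mice, far above the 75th percentile on all 8 arrays.

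The array reads the Cyp2b genes with 60-base probes, and since the genes are close paralogs, the sequences decide which transcript a signal can be credited to. The probes below carry most of the result. The first is listed for Cyp2b9 alone and lies at chr7:23095303-23095362 on the mm7 assembly used by the array design. The second is listed for Cyp2b10 alone, at chr7:22691069-22691128. The third is named Cyp2b13, yet the array's accessions for it also list Cyp2b9 and Cyp2b10. It spans an intron, between chr7:22986378 and chr7:22992433.
Cyp2b9, A_52_P256914: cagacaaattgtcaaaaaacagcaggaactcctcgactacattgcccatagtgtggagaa
Cyp2b10, A_52_P472486: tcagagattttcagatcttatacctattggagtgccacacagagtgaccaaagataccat
Cyp2b13, A_51_P492339: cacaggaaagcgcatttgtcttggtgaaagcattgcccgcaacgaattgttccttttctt

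The remaining probes are shown by their first 30 bases, to tell them from those above. The other Cyp2b9 probe (chr7:23107426-23107485) is listed for both Cyp2b9 and Cyp2b10. The other Cyp2b10 probe, listed for Cyp2b10 alone, spans an intron between chr7:22691430 and chr7:22700100. The other Cyp2b13 probe (chr7:22992625-22992684) is the only probe listed for Cyp2b13 alone, and for that listing it is called the Cyp2b13-only probe below. The detected Cyp2b19 probe lies at chr7:23669651-23669710.
Cyp2b9, A_51_P467076: taaggtctgatttctatgtctacagacttg
Cyp2b10, A_51_P182362: gaaaagtgaagcttttctgcccttctcaac
Cyp2b13, A_52_P289091: agagctgctggaaactagactgtatgttgc
Cyp2b19, A_51_P352763: tgaatgactctgcttagattctcccacatt

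Cyp2b9 and Cyp2b13 are close copies upstream of the transcription start too. Their 250 bases before the start, taken from RefSeq on the GRCm38.p6 assembly, were identical at 248 of 250 positions. The sequences are printed because both genes were read partly through a shared probe, and capitals mark the 2 bases that differ. Both lie on the plus strand, at chr7:26173159-26173408 for Cyp2b9 and chr7:26061245-26061494 for Cyp2b13.
Cyp2b9: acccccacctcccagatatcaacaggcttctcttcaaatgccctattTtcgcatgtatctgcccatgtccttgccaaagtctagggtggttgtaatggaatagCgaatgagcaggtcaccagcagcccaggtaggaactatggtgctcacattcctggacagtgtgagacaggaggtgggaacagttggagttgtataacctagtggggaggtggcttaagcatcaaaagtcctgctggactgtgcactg
Cyp2b13: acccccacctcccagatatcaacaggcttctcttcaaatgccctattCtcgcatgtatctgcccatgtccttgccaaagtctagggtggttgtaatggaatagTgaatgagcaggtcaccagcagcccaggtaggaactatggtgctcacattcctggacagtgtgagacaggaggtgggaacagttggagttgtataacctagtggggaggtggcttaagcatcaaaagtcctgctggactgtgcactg

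The corresponding window of Cyp2b10 (chr7:25897408-25897657, plus strand) had 75.8% of its aligned bases in common with that of Cyp2b9. It is shown because the probe with the largest decrease of the family is listed for Cyp2b10 alone.
Cyp2b10: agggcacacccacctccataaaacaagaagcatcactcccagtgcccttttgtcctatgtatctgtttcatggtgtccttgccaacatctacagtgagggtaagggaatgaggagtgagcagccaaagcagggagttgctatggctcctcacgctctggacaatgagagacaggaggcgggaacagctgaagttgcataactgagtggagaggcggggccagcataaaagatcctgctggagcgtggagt
The letters AGGTCA, a half-site of many nuclear receptors, were searched on both strands of each window. They occurred once in Cyp2b9 and Cyp2b13, 138 bases before the start in each, and once in Cyp2b19, 121 bases before the start. They did not occur in the Cyp2b10 window, and 14.0% of 32851 mouse promoter windows of this length held them. The well-known phenobarbital-responsive enhancer of Cyp2b10 lies further upstream than these windows reach.

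Across the family, 4 of the 7 detected probes were called lower in mice administered the atherogenic diet and 0 were called higher. Over all 31056 detected probes, 4.94% were called lower and 3.06% higher. The lower probes belonged to Cyp2b9, Cyp2b10 and the probe named Cyp2b13, with decreases between 2.27 and 3.60 on the log2 scale. The probe listed for Cyp2b13 alone, which lay near background in both diets, and the Cyp2b19 probe were not called. At the 1% false discovery rate the study used, 0 of the 7 were called, where 0.528% of all probes were. By the unequal-variance test named in the study's methods, run here on the values above, 0 of the 7 were called after adjustment, where 0.0708% of all probes were. The study's own list of changed probes, for which it reports an enriched cytochrome P450 cluster, was not compared with these calls.

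Cyp2b10 was lower in ATH mice at both of its probes, and 1 of them had the largest difference of the family. At probe A_52_P472486 the 4 STD mice had scaled log2 intensities of 0.22, -1.24, -2.76 and -2.09, and the 4 ATH mice had -5.20, -4.97, -4.75 and -5.34. Every ATH mouse lay below every STD mouse, and the ATH mice lay close together while the STD mice were spread. The mean fell from -1.47 ± 1.29 (SD, n = 4) to -5.07 ± 0.26, a difference of -3.60 (SE 0.55), or 12.1-fold lower. The adjusted p in limma was 0.0131. With normexp background correction the difference was -1.98 (adjusted p = 0.0152 in limma). That correction added an offset of 50 to each signal, which by itself shrinks log2 differences at dim probes. The normexp differences below share this limit. This was the Cyp2b probe that stayed under 0.05 with any single mouse left out, with adjusted p between 0.0109 and 0.0411.

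The other Cyp2b10 probe, A_51_P182362, had values of -0.13, -1.47, -2.64 and -2.36 in STD mice and of -3.52, -4.29, -4.04 and -4.39 in ATH mice. Here too the groups did not overlap. The difference was -2.41 (SE 0.50), or 5.32-fold lower, with an adjusted p of 0.0299 in limma, and -1.60 with normexp. The call was lost without STD mouse 2 (adjusted p in limma 0.0628), STD mouse 4 (0.0531), ATH mouse 3 (0.0713) or ATH mouse 4 (0.0780). The 2 Cyp2b10 probes differed in the size of the decrease by 1.18 on the log2 scale. The difference between their signals on an array was -0.34 to 0.12 in STD and 0.68 to 1.68 in ATH mice, with an exact permutation p of 0.0286, or 0.0545 adjusted over the 21 pairs of Cyp2b probes.

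Cyp2b9 was lower in ATH mice at both of its probes, but only the probe listed for Cyp2b9 alone was called. At A_52_P256914 the STD mice had values of -1.60, -2.94, -4.03 and -3.27 and the ATH mice -4.26, -4.93, -5.51 and -6.20. No values overlapped, although STD mouse 3 and ATH mouse 1 were only slightly apart, and ATH mouse 4 was not detected. The difference was -2.27 (SE 0.55), or 4.81-fold lower, with an adjusted p of 0.0421 in limma, and -1.0 with normexp. It rested on most of the mice: the adjusted p rose to 0.0867, 0.0790, 0.0566 and 0.0849 without STD mouse 1, 2, 3 or 4 and to 0.0989 and 0.101 without ATH mouse 3 or 4. With quantile normalization it was 0.0585 and with spike-in scaling 0.0558.

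At the Cyp2b9 probe A_51_P467076, which may also read Cyp2b10, the STD values were 2.06, 0.72, -1.15 and -0.59 and the ATH values -0.62, -1.41, -3.46 and -3.64. The 2 groups overlapped, since ATH mouse 1 lay above STD mouse 3 and close to STD mouse 4. The difference was -2.55 (SE 0.86), the mean falling from 0.26 ± 1.44 to -2.28 ± 1.5 (SD, n = 4), with an adjusted p of 0.0946 in limma. With the array position as a block, which compares each ATH array with the STD array at the same place on its slide, the adjusted p in limma was 0.0186 and the SE 0.18. In that fit 5 of 7 Cyp2b probes were called lower, where 2.71% of all probes were.

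The Cyp2b13 probes gave different answers. At A_51_P492339, which is listed for Cyp2b13, Cyp2b9 and Cyp2b10, the values were 0.95, -0.28, -1.88 and -1.24 in STD mice and -2.60, -3.10, -3.88 and -4.61 in ATH mice. The groups did not overlap, and the difference was -2.94 (SE 0.63), or 7.66-fold lower, with an adjusted p of 0.0322 in limma, and -2.07 with normexp. The call was lost without STD mouse 1 (0.0681), STD mouse 2 (0.0672), STD mouse 4 (0.0630), ATH mouse 3 (0.0796) or ATH mouse 4 (0.0793).

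At A_52_P289091, listed for Cyp2b13 alone, the STD mice had values of -4.92, -4.51, -4.75 and -4.91 and the ATH mice -4.53, -4.80, -5.79 and -3.47. The STD mice were nearly alike, and the ATH mice lay on both sides of them, with ATH mouse 3 the lowest and ATH mouse 4 the highest of all. The difference was 0.13 (SE 0.41, 95% confidence interval -0.81 to 1.06), with an adjusted p of 0.861 in limma. It was -0.26 without ATH mouse 4. The STD mean of -4.77 was only 0.92 above the lowest signal counted as well above background on the ATH arrays (-5.70 on average), so a decrease of the size seen at A_51_P492339 could not have been measured at this probe. How much of the signal at A_51_P492339 came from Cyp2b13, Cyp2b9 or Cyp2b10 was not tested.

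Cyp2b19, an arachidonic acid epoxygenase of keratinocytes, had values of -3.40, -2.11, -2.99 and -3.36 in STD mice and -2.94, -3.19, -3.41 and -3.72 in ATH mice at its detected probe. The groups overlapped throughout, with STD mouse 2 above the rest. The difference was -0.35 (SE 0.30, 95% confidence interval -1.02 to 0.32), with an adjusted p of 0.463 in limma. The other Cyp2b19 probe, A_52_P421626, was not well above background on any array. Keratinocyte markers were read as a check on skin transcripts: 6 of 8 were detected, and none was called in limma (adjusted p of 0.104 to 0.736). The remaining gene of the family with a probe, Cyp2b23 (LOC243881 in the array's names), was detected on 1 array, that of ATH mouse 1.

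**Figure D1:**
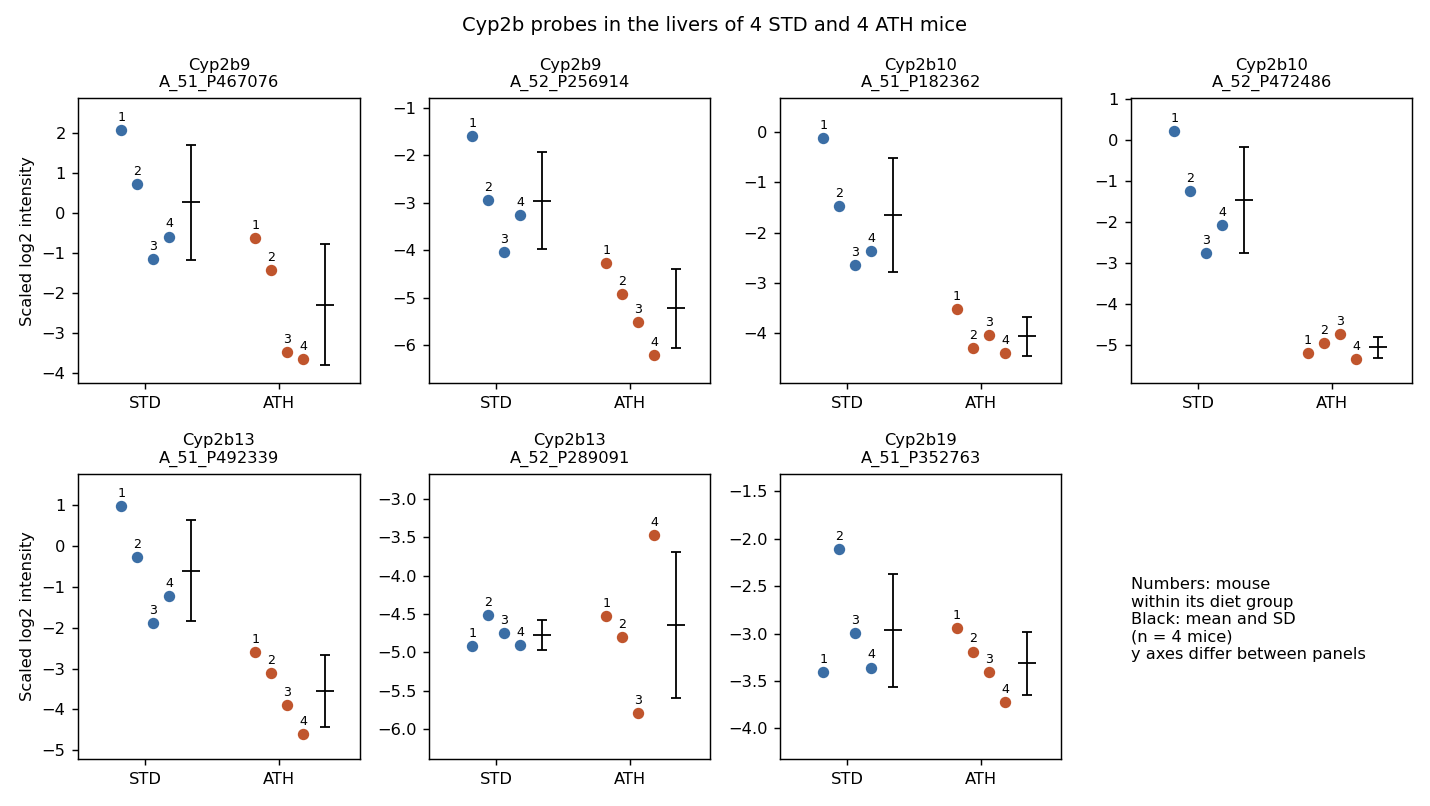
Scaled log2 intensity of the 7 detected Cyp2b probes, with 1 panel per probe and its own y axis; each point is 1 mouse (blue STD, orange ATH, numbered within its diet), and the black bar gives the mean and SD of 4 mice. The diets separate fully at both Cyp2b10 probes, at A_52_P256914 and at A_51_P492339, and overlap at A_51_P467076, A_52_P289091 and Cyp2b19.

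**Figure D2:**
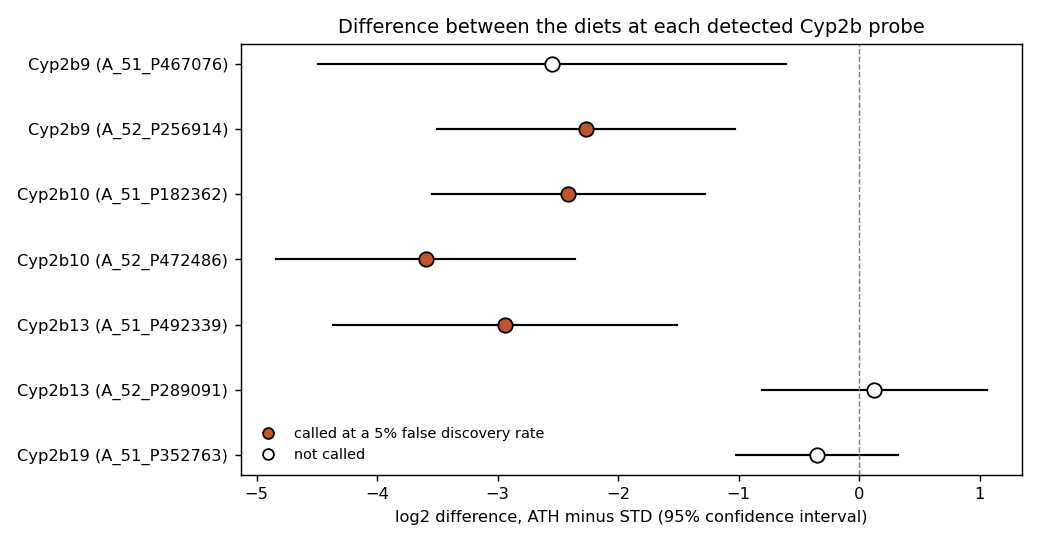
Difference in log2 intensity between the diets (ATH minus STD) at each detected Cyp2b probe, with its 95% confidence interval from limma and filled points for probes called at a 5% false discovery rate. The 4 called probes lie between -3.60 and -2.27, while the intervals of A_52_P289091 (-0.81 to 1.06) and Cyp2b19 (-1.02 to 0.32) span 0.

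In all, 4 of the 7 detected probes showed no overlap between the diets, all with ATH below STD, where 13.8% of all detected probes did so in that direction. The smallest p an exact permutation test can give with 4 against 4 arrays is 0.0286. Groups that do not overlap always reach it, as these 4 probes did, so it is no further support.

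The Cyp2b genes also differed widely between mice on the same chow. The number of a mouse is also the place of its array on the slide. A difference between mice therefore cannot be told apart from one between array places. At the 5 probes for Cyp2b9, Cyp2b10 and the shared Cyp2b13 sequence, the highest and lowest STD mouse were 2.43 to 3.22 apart on the log2 scale, which is 5.39-fold to 9.30-fold. The SD over STD mice at these probes was between 1.01 and 1.44, above that of 98.8% to 99.7% of detected probes, whose median SD was 0.21. The Cyp2b13-only probe had an SD of 0.19 in STD mice.

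The STD mice stood in the same order at all 5 of these probes, with mouse 1 highest, then mouse 2, mouse 4 and mouse 3. This order occurred in 3.50% of all detected probes. Differences between these probes on an array varied less than the levels, spanning 0.23 to 0.99 over the STD mice in their 10 pairs. The difference between A_51_P467076 and A_51_P492339 spanned 0.46, that between the 2 Cyp2b9 probes 0.99, and that between the Cyp2b10 probe A_52_P472486 and A_51_P492339 spanned 0.23. Probes that read a shared sequence are not independent measurements, but A_52_P256914 and A_52_P472486 are each listed for 1 gene only, and the difference between them spanned 0.64. Neither the Cyp2b13-only probe nor Cyp2b19 followed this order: in both, mouse 2 was highest and mouse 1 lowest.

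Among ATH mice the spread at the Cyp2b10 probes was small, with SDs of 0.26 and 0.39 against 1.29 and 1.13 in STD mice. At the Cyp2b9 probes it was 1.5 and 0.82, and the ATH mice stood in the order 1, 2, 3, 4 at both, as they did at the shared Cyp2b13 probe and at Cyp2b19. The lowest signals counted as well above background lay between -5.91 and -5.32 on the 8 arrays, so A_52_P472486 and A_52_P256914 were near the lower end of the measurable range in ATH mice.

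**Figure D3:**
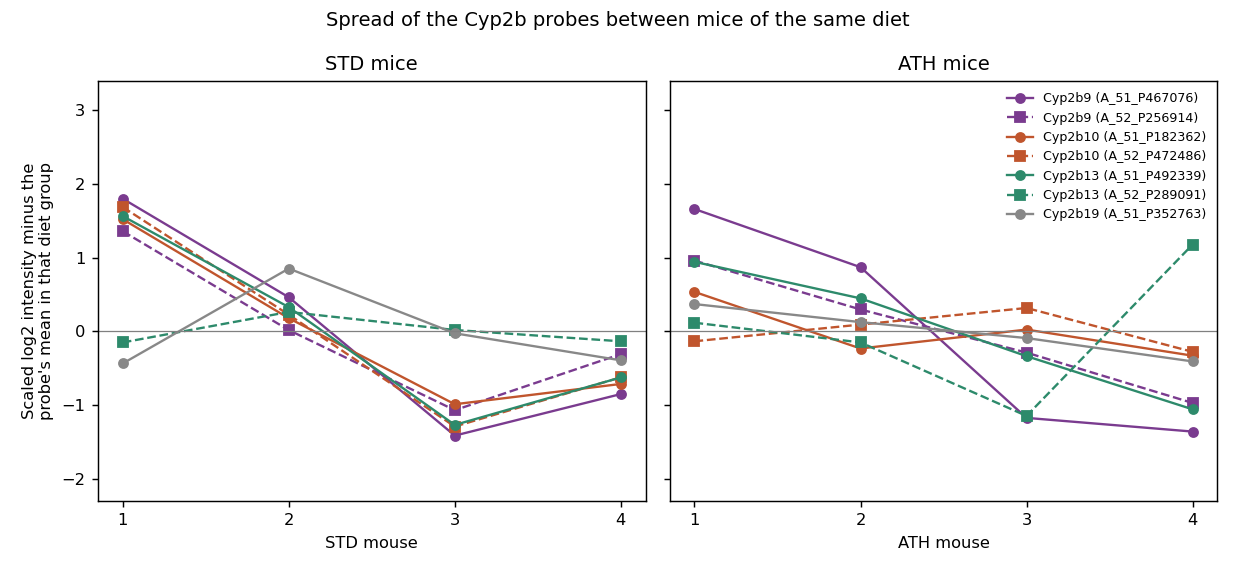
Scaled log2 intensity of each detected Cyp2b probe in each mouse, minus that probe's mean in the diet group, for the STD mice (left) and ATH mice (right); lines join the values of 1 probe and imply no order of the mice. The 5 probes for Cyp2b9, Cyp2b10 and the shared Cyp2b13 sequence run together over the STD mice, from mouse 1 at the top to mouse 3 at the bottom, and the 2 Cyp2b10 probes are nearly flat over the ATH mice.

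To ask whether the genes responded to different degrees, the brightest probes of the 4 genes were subtracted from each other on each array, which removes the scaling. Of 6 pairs, none reached an adjusted p under 0.05 in the exact permutation test. Its smallest possible p is 0.0286, so after adjustment a call needs most of the pairs to reach that floor. The same holds over the 21 pairs of probes. The lack of a call therefore does not show that the genes responded alike. Relative to Cyp2b19, Cyp2b10 was 2.06 lower in ATH than in STD mice on the log2 scale (exact p = 0.0286, adjusted 0.0857), and the Cyp2b13 probe 2.59 lower (exact p = 0.0286, adjusted 0.0857). Relative to Cyp2b19, Cyp2b9 was 2.20 lower (exact p = 0.0571, adjusted 0.114). Among Cyp2b9, Cyp2b10 and the shared Cyp2b13 probe the differences were -0.13, 0.39 and 0.53, with exact permutation p of 0.771, 0.371 and 0.257. The Cyp2b9 probe in these pairs is also listed for Cyp2b10. Between the probes listed for 1 gene each, the difference of A_52_P256914 (Cyp2b9) minus A_52_P472486 (Cyp2b10) was 1.33 higher on the log2 scale in ATH mice (exact p = 0.0286, adjusted 0.0545 over the 21 pairs of probes), and against A_51_P182362 of Cyp2b10 it was 0.14 higher (exact p = 0.771).

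CAR itself, the related receptor PXR and genes that act on CAR were read next, together called regulators here. Of 26 regulators detected, 0 were called in limma, where 5.29% of all genes were called lower and 4.04% higher. At these shares few calls would fall among 26 genes, so the 0 does not show that the regulators were unchanged. At an unadjusted p under 0.05 there were 4, namely Rxra, Ppargc1a and Cebpa with lower values and Nfkb1 with higher values in ATH mice. Their adjusted p in limma were 0.144, 0.107, 0.0510 and 0.0740. The share of all genes under that threshold was not counted, so these genes are not read as standing out. CAR (Nr1i3) had scaled log2 intensities of 3.26, 2.80, 2.58 and 2.57 in STD mice and of 2.59, 2.72, 1.62 and 1.59 in ATH mice. ATH mice 1 and 2 lay within the STD range and ATH mice 3 and 4 below it, with a difference of -0.67 (SE 0.30) and an adjusted p of 0.179 in limma. PXR (Nr1i2), a related xenobiotic receptor that shares targets with CAR, had values of 3.46, 1.80, 3.65 and 3.84 in STD mice and of 1.27, 1.81, 3.31 and 3.30 in ATH mice. STD mouse 2 and ATH mice 1 and 2 were low at this probe, and the difference was -0.77 (SE 0.58, adjusted p = 0.411 in limma). The median difference of the 26 regulators was -0.16, against -0.14 over all 16739 genes. Left unscaled it was 0.29, and scaled on the spike-in probes it was 0.15, and 4 and 2 regulators were then called higher, with Nfkb1 and Rela among them in both cases. Under these scalings 25.8% and 9.95% of all genes were called higher.

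Other genes known as CAR targets were mostly lower, as were most genes: 30 of 36 had lower values, against 10905 of all 16739. Of 36 detected outside the Cyp2b family, 14 were called lower and 0 higher in limma, where 5.29% of all genes were called lower and 4.04% higher, and their median difference was -0.72. Without scaling 9 were called lower and 4 higher (Cyp3a13, Sult1d1, Abcc4 and Akr1b7), with a median of -0.27, where 1.36% of all genes were called lower and 25.8% higher. With the array position as a block 11 were called lower, where 2.76% of all genes were, as Cyp2c29 was gained and Ephx1, Ugt1a1, Gstt1 and Slco1a4 were lost (adjusted p in limma of 0.0501 to 0.0612). Among the P450 genes, Cyp3a11, a main drug-oxidising enzyme of mouse liver, fell by 1.83 (adjusted p = 0.00338). Its STD values were 8.64, 8.32, 8.11 and 8.02 and its ATH values 6.37, 6.63, 6.52 and 6.25, far apart and with little spread. Cyp2c55 fell by 2.18, Cyp2a5, the coumarin hydroxylase, by 1.08, and Cyp1a2 by 0.70. In limma, their adjusted p were 0.0179, 0.0181 and 0.0304.

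The conjugating, transport and other genes of that list that were called were lower too. Of the 36 genes, 6 had higher values in ATH mice and were not called, among them Gsta2 (0.36), Abcc4 (0.28) and Sult1d1 (0.20). The glucuronosyltransferase genes Ugt1a9 and Ugt1a1 fell by 2.28 and 0.90, though their transcripts share exons, so the array may not fully separate them. Papss2, which makes the sulphate donor of sulphotransferases, fell by 1.2, Gstt1, a glutathione transferase, by 0.61, and Ephx1, the microsomal epoxide hydrolase, by 0.73. The bile salt and conjugate exporter Abcc3 fell by 1.16 and the organic anion importer Slco1a4 by 1.32. Aldh1a1, an aldehyde dehydrogenase, fell by 1.22, the carboxylesterase Ces2a by 1.26 and Htatip2 by 0.74. Without scaling, the decreases of Cyp1a2, Ephx1, Ugt1a1, Gstt1 and Htatip2 were between 0.16 and 0.45 and were not called.

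The neighbours of the Cyp2b genes in their P450 cluster on chromosome 7 were lower as well. Of 7 detected, 4 were called lower in limma, namely Cyp2a4 (-1.15), Cyp2a5 (-1.08), Cyp2a22 (-0.71) and Cyp2f2 (-0.59), and 0 higher. Over all genes 5.29% were called lower and 4.04% higher. Cyp2a4 and Cyp2a5 are near-identical copies, so their probes may share signal. Cyp2g1 differed by -1.37, Cyp2a12 by -0.23 and Cyp2s1 by 0.81, none of them called. With quantile normalization 2 of the 7 were called lower and with spike-in scaling 1, where 2.98% and 1.41% of all genes were. Without scaling 2 were called lower and 1 higher, with a median of -0.26, where 1.36% of all genes were called lower and 25.8% higher. With the array position as a block Cyp2g1 was called (adjusted p = 0.0186 in limma) and Cyp2f2 was not (0.0615).

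Since Cyp2b9 and Cyp2b13 are known as female-predominant genes, other sex-biased liver genes were read in these male mice. Over all genes 5.29% were called lower and 4.04% higher. Of 17 female-biased genes detected outside the Cyp2b family, 7 were called lower and 0 higher, with a median of -0.87. The largest difference was that of Cyp4a14, a fatty acid hydroxylase controlled by PPAR-alpha, with STD values of 4.95, 3.07, 2.32 and 1.41 and ATH values of 1.08, -0.26, -1.61 and -2.76. It was spread over both diets, did not overlap, and fell by 3.82 (adjusted p = 0.0426 in limma). Cyp3a16, Cyp3a44 and Cyp3a41a fell by 1.82, 1.64 and 1.31, but these genes are close copies of each other and of Cyp3a11. Cyp2a4 fell by 1.15, the prolactin receptor gene Prlr by 1.09, and the sulphotransferase gene Sult3a1 by 1.22, although only 1 ATH array was well above background for the last. Of 18 male-biased genes, 4 were called lower and 1 higher, with a median of -0.59. The lower genes were Cyp4a12a (-1.55), Nudt7 (-1.06), Cyp7b1 (-1.05), the oxysterol hydroxylase, and Ugt2b38 (-0.91), and the higher was Serpina12 (0.70). With quantile normalization 4 female-biased and 3 male-biased genes were called lower, where 2.98% of all genes were. Without scaling 6 female-biased genes were called lower and 1 higher, and 2 male-biased genes lower and 1 higher. In that setting 1.36% of all genes were called lower and 25.8% higher. With the array position as a block Prlr was not called (adjusted p = 0.0501 in limma).

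**Figure D4:**
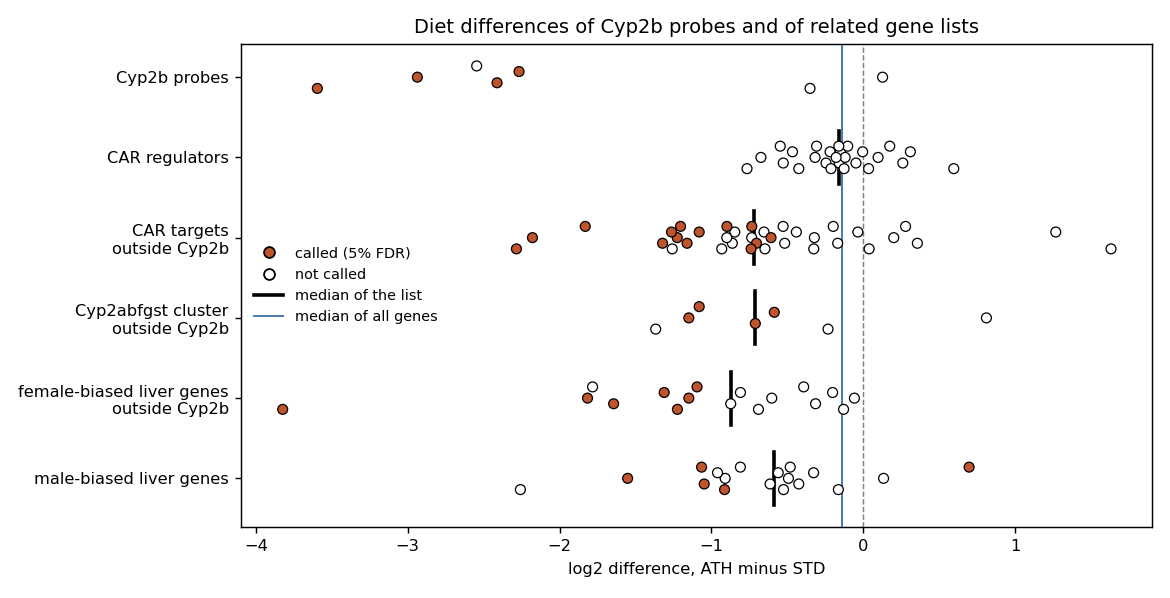
Difference in log2 intensity between the diets (ATH minus STD) for the 7 detected Cyp2b probes and for the detected genes of 5 lists, each gene by its brightest probe; filled points were called at a 5% false discovery rate, black bars mark list medians and the blue line the median of all genes. The CAR regulators lie around the median of all genes (-0.16 against -0.14), and the medians of the CAR targets, the cluster and the sex-biased lists lie between -0.87 and -0.59.

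By the rule of the highest Pearson correlation over the 8 arrays, the genes most like Cyp2b9 (A_51_P467076) were Wdr45, Bend7, Gstt2, Fech, the last enzyme of haem synthesis, and Eci2, an enzyme of fatty acid oxidation. Their r was 0.984 to 0.988. Those most like Cyp2b10 (A_51_P182362) were Slc22a21, Ppp1r3g, Acad11, Olfr266 and the shared Cyp2b13 probe, with r of 0.972 to 0.979. Those most like Cyp2b13 (A_51_P492339) were Zbtb43, Ppp1r3g, Mia2, Smarcc2 and Cyp2d12, with r of 0.983 to 0.991. Ppp1r3g, a glycogen-targeting phosphatase subunit, was named for both, and it differed by -2.12 (adjusted p = 0.0186 in limma). Each of the genes named by this rule so far had the STD order of the Cyp2b9 probe. Choosing them by correlation with probes of that order on the same arrays makes this likely, so it is no separate finding. For Cyp2b19 they were Arhgef10, C1ql2, Cyb5r2, Tent5b and Mfsd14a, with r of 0.942 to 0.972. These values describe 8 arrays and include the difference between the diets.

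Cell type markers moved with the diet as well, and the array measures whole liver, in which fewer cells of a type and less RNA per cell cannot be told apart. Of 18 hepatocyte markers, 4 (Tat, Ass1, Tdo2 and Hpd) were called lower and 0 higher, with a median of -0.39, which was 0.058 without scaling. Of 16 macrophage markers, 8 were called higher and 0 lower, with a median of 1.62, and their mean scaled log2 intensity was 0.17 to 0.51 in STD and 1.07 to 3.22 in ATH mice. Among 12 stellate cell markers 2 were called higher (0.30 to 0.60 in STD and 0.83 to 1.28 in ATH mice), and among 8 endothelial markers 1 was. Of 10 T and B cell markers detected 0 were called in limma, with mean intensities of -3.19 to -2.70 in STD and -3.20 to -1.77 in ATH mice, and of 7 cholangiocyte markers 1, Sox9, was called higher. These counts depend on the scaling. In the main setting 5.29% of all genes were called lower and 4.04% higher. The share called higher was 9.95% with spike-in scaling and 25.8% without scaling. With quantile normalization 712 of 16739 genes were called higher. Over the main setting, quantile, spike-in and no scaling, the markers called higher ranged from 6 to 13 for macrophages, 2 to 10 for stellate cells, 1 to 5 for endothelial cells, 0 to 3 for T and B cells, 1 to 3 for cholangiocytes and 0 to 2 for keratinocytes. Under each of the others 1 hepatocyte marker was called lower, as it was with the array position as a block. In those fits 1.36% to 2.98% of all genes were called lower. With the block 5 macrophage and 1 stellate cell markers were called higher. The part of the cell markers in the Cyp2b differences was not tested.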

How the data were processed

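Liver RNA of 8 male mice was measured on 1-colour arrays, 1 array per mouse and 4 per diet, grouped by the diet in the labels. The authors ran Agilent Feature Extraction (version 9.5 in the submitters' processing notes) and deposited spot intensity values, already background-subtracted and detrended by that software. A second deposited table, from GeneSpring, holds log2 values and served as an alternative.

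Spots of a probe were averaged after outlier spots were left out, log2 was taken, and the 75th percentile of the 41174 probes that are not controls was subtracted on each array. A probe was detected when well above background, positive and significant and no outlier on at least 3 of 4 arrays of a diet, which kept 31056. Diet was tested over these with limma 3.58.1 in R 4.3.3 (moderated by eBayes, two-sided) at a 5% false discovery rate after Benjamini-Hochberg adjustment, and the procedure was tested on simulated data. Exact permutation tests were two-sided over the 70 assignments of the arrays, in Python 3.11.15 with numpy 2.4.6 and pandas 2.3.3. Figures used matplotlib 3.10.9, and promoters were aligned with Biopython 1.88.

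Genes in lists were read by their brightest detected probe, named through RefSeq accession, gene ID, symbol or synonym, and 8161 probes that could not be matched were left out of the lists. The text names every Cyp2b probe, Cyp2b23, Nr1i3, Nr1i2, each listed gene called at 5% outside the marker lists, and per Cyp2b gene the 5 genes most correlated with it. The members and the lists were chosen with earlier results of these data known. Other genes named as called under another scaling, at an unadjusted p or among cell markers, and Cyp2g1, Cyp2a12, Cyp2s1, Cyp2c29 and Gsta2, were added after their values were seen, as was the AGGTCA motif. Probe positions are those in the array's files, and a genome or annotation of that assembly was not used here.

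The replicate number is the place of the array on its slide. Same-numbered arrays deviated together from their group means, with correlations over probes of 0.10, 0.23, 0.18 and 0.18, so the fit with the number as a block was run as well. The number of arrays limits the precision. Alternatives covered scaling, background correction, the deposited log2 table, the detection filter, the methods' test, the threshold, the block and leaving out each array.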

Additional observations from a re-analysis of the deposited data

Results flagged for a closer look

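Among 74 sets of 4 mice, 3 had 1 mouse far from the others, about as many as the 1 in 20 that chance gives, and none of them was at a Cyp2b probe. Of the full range of 4 STD mice, 0.850 lay between the lowest and its neighbour at Cyp2f2 (8.46 against 8.54 to 8.56) and 0.883 at Cyp7b1 (7.60 against 7.75 to 7.77). At Nudt7 in ATH mice, 0.830 of the range lay between the highest and its neighbour (7.53 against 6.51 to 6.69).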

How the results depend on the processing

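The probe A_52_P472486 of Cyp2b10 was called under every alternative except the methods' unequal-variance test (adjusted p = 0.135) and the 1% threshold. Under that test 22 probes in all and 0 Cyp2b probes were called, with values of -2.27 (A_52_P256914), -2.41 (A_51_P182362), -3.60 (A_52_P472486) and -2.94 (A_51_P492339) as before, and so it was at 1%, where 164 probes were called. Without the detection filter (1086 probes called) A_52_P256914, A_51_P182362 and A_51_P492339 had adjusted p in limma of 0.068, 0.0512 and 0.0547. At A_52_P256914 quantile normalization gave -2.07 and spike-in scaling -1.96, and it could not be tested where detection on all 8 arrays was asked. A_51_P467076 was called with normexp (-2.05, adjusted p in limma 0.0488) and with the replicate block (-2.55, adjusted p 0.0186), which changed no other Cyp2b call and called 1322 probes in all. The uncalled A_52_P289091 was -0.17 with normexp and Cyp2b19 0.10 without scaling. The number of probes called was 2483, and 7364 without scaling (6990 of them higher) and 6394 with normexp (5184 lower). Without scaling the median of all genes rises by 0.45 against the main setting. Leaving out single arrays gave 394 to 3979 calls, with differences from -3.10 to -1.95 (A_51_P467076), -2.62 to -1.81 (A_52_P256914), -2.74 to -1.90 (A_51_P182362), -4.03 to -3.03 (A_52_P472486), -3.36 to -2.41 (A_51_P492339), -0.26 to 0.51 (A_52_P289091) and -0.50 to -0.07 (Cyp2b19). The difference between Cyp2b9 and Cyp2b10 ran from -0.51 to 0.27 without single arrays. With the mean of a gene's probes it was 0.60, Cyp2b9 minus Cyp2b13 was -1.0 and Cyp2b10 minus Cyp2b13 -1.60. With the Cyp2b13-only probe, added after seeing the data, Cyp2b9 minus Cyp2b13 was -2.67, Cyp2b10 minus Cyp2b13 -2.54 and Cyp2b13 minus Cyp2b19 0.48. Of the gene lists, CAR regulators had 4 calls when left unscaled and 2 with spike-in scaling, the P450 cluster 2 with quantile normalization and 1 with spike-in scaling, female-biased genes 4 with quantile normalization, male-biased genes 3 without scaling, and the hepatocyte median was 0.058 without scaling. The methods' test, as run here, called 0 genes of every list. The causes were not tested. Signal near background limits A_52_P289091 in both diets and A_52_P256914 and A_52_P472486 in ATH mice.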
